A study of Mus musculus with 12 samples.

Results

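The Ifi200 genes are a family of HIN-200 genes that lie side by side on mouse chromosome 1. Of these, 8 were described across cytotoxic T lymphocytes (CTL): Ifi206, Ifi214, Ifi213, Ifi209, Ifi208, Ifi204, Mndal and Ifi203. They were chosen by symbol from the 13283 genes of the table, and all 8 were found in it. The list was drawn up with results of these libraries already known, and which measured values chose it is not recorded. The differences between genotypes were taken as those used, so the genotype values of the members are given as a description, with no p-value, and nothing is read from how many met a threshold. The response to PI3Kdi was known as well, so the p-values given for it are not independent of the choice of genes.

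CTL are effector CD8 T cells. They were grown from age and sex matched female mice, by activation for 48 h and then culture with 20 ng/mL of IL-2 and 2 ng/mL of IL-12. WT mice (GzmB cre+) and FOXO1-GFP KO mice (FOXO1-GFP fl/fl, Gzmb cre+) both carried a Cre recombinase driven by the granzyme B promoter, and the floxed allele of the KO mice encodes a FOXO1 fused to GFP that Cre deletes once effector cells express granzyme B. Cells of each genotype were cultured for 24 h with DMSO or with IC87114 at 10 µM (PI3Kdi), which blocks p110δ, a catalytic subunit of PI3K, and this gave 4 groups (WT, WT+PI3Kdi, FOXO1-GFP KO, FOXO1-GFP KO+PI3Kdi) of 3 libraries. By the study's methods, WT CTL were sorted as DAPI- CD8+ and FOXO1-GFP KO CTL as DAPI- CD8+ GFP-.

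Values were FPKM, read counts scaled for library size and for the summed exon length of the gene. Reads that fit several genes were not counted, and the part lost can differ between members. Levels of different members, and their shares of a sum, therefore compare only roughly. Depth, recovered from the steps between low FPKM values, ran from 12.9 to 48.0 M reads per library, and the 3 WT+PI3Kdi libraries (15.2 to 19 M) were all shallower than the 3 WT libraries (25.1 to 48.0 M). The members had 124 to 5319 reads in a library. Foxo1 was between 5.77 and 10.46 FPKM in the 6 WT libraries and between 0.58 and 1.75 FPKM in the 6 FOXO1-GFP KO libraries, with PI3Kdi or without. The 10 CD8 T cell and cytolytic markers were all present in every group, with a summed level of 9924 to 14344 FPKM.

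HIN-200 proteins combine a HIN domain, which can bind DNA, with a pyrin domain, which binds other pyrin domains, although some members of the family lack either domain. The human relatives include the DNA sensor IFI16 and the nuclear antigen MNDA, and AIM2, the sensor of the inflammasome that responds to DNA in the cytosol, is encoded at the edge of the mouse cluster. Genes of the family are classical targets of type I and type II interferon, through the factors that bind the interferon-stimulated response element (ISRE), and they are expressed in haematopoietic cells.

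The 8 members spanned 474 kb of chromosome 1 (GRCm38, chr1:173468485-173942672). Ifi206, Ifi214, Ifi213, Ifi204, Mndal and Ifi203 were annotated on the minus strand, and Ifi209 and Ifi208 on the plus strand. Gaps between successive members were 25.7 to 82.2 kb, except that the annotated Mndal and Ifi203 overlapped by 22.1 kb on the same strand and had 37 exonic bases in common. Copies of one another limit what short reads can tell apart, and 5.71% (Ifi203) to 23.1% (Ifi209) of the stretches of 75 bases in a member's transcripts also occurred in transcripts of another gene. For Ifi209 and Ifi214 these stretches were shared with each other.

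The start sites of the members lie in related sequence. RefSeq promoter windows, 250 bases before to 50 bases after a start (GRCm38.p6), matched 7 of the 8 members, the other being Ifi204. Shown here are 60 bases of each, 5′ to 3′ on the strand of the gene, because the same letters recur in them. Capitals mark the ISRE letters GAAATCGAAA, or in Ifi209 the stretch nearest to them.
Ifi206: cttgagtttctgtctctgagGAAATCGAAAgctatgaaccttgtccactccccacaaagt
Ifi208 and Ifi213: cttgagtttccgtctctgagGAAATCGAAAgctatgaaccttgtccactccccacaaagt
Mndal and Ifi203: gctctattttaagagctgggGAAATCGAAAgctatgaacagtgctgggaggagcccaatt
Ifi214: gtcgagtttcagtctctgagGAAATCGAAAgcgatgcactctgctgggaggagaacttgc
Ifi209: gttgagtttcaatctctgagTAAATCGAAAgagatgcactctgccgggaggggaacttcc

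These stretches lie at chr1:173491319-173491378 on the minus strand (Ifi206), chr1:173673587-173673646 on the plus strand (Ifi208), chr1:173599306-173599365 on the minus strand (Ifi213), chr1:173880184-173880243 on the minus strand (Mndal), chr1:173942488-173942547 on the minus strand (Ifi203), chr1:173535997-173536056 on the minus strand (Ifi214) and chr1:173630760-173630819 on the plus strand (Ifi209). Ifi208 and Ifi213 were identical over all 60 bases, as were Mndal and Ifi203, and Ifi206 matched Ifi208 at 59 of 60. Ifi209 was nearest to Ifi214, with 53 of 60 bases in common. It differed from the capitalised letters by G1T, counted from 1 at the 5′ end of GAAATCGAAA.

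The general ISRE pattern was GAAA repeated with any 2 bases between, searched on both strands. It was in a window of 6 of the 7 members, in 3.99% of all genes and in 3.44% of all 32851 RefSeq windows. Mndal and Ifi203 had 2 windows each, and a match in either was counted. The exact letters GAAATCGAAA were in 16 of those windows (0.0487%), 7 of them windows of Ifi200 genes, the seventh being that of Ifi207. The FOXO pattern GTAAACA, on either strand, was in the windows of Ifi206, Ifi208 and Ifi213, in 4.05% of all genes and in 3.65% of all windows. In the stretches shown, these genes matched each other at 59 or 60 of 60 bases, so their matches are not independent. The same holds for the ISRE letters in members with near-identical stretches. The pattern bound by STAT dimers, TTC and GAA with any 3 bases between, was in 0 of the 7 members, in 9.55% of all genes and in 8.30% of all windows. None of the 3 patterns contains another. They were chosen after the sequences had been seen, and a match describes letters and not the binding of a factor.

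Levels of the members in CTL spread over a wide range. In WT, the order from high to low was Ifi209, Mndal, Ifi206, Ifi208, Ifi203, Ifi204, Ifi214 and Ifi213, with means of 32.3 ± 6.08, 21.2 ± 3.73, 19.2 ± 1.68, 8.32 ± 0.805, 6.97 ± 0.674, 6.91 ± 2.05, 5.89 ± 0.377 and 1.58 ± 0.331 FPKM (SD, n = 3). Among neighbours in that order, the libraries of Mndal and Ifi206 overlapped, as did those of Ifi203 and Ifi204 and those of Ifi204 and Ifi214, while the other neighbours were separate. The summed level of the 8 members was 102 ± 6.79 FPKM in WT and 160 ± 14.6 FPKM with PI3Kdi, and 66.9 ± 7.15 FPKM in FOXO1-GFP KO and 84.5 ± 7.82 FPKM with PI3Kdi (SD, n = 3). The libraries of WT (95.7 to 109 FPKM) therefore lay under those of WT+PI3Kdi (145 to 174 FPKM) and above those of FOXO1-GFP KO with PI3Kdi (75.7 to 90.5 FPKM) and without it (62.5 to 75.2 FPKM).

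**Figure D1:**
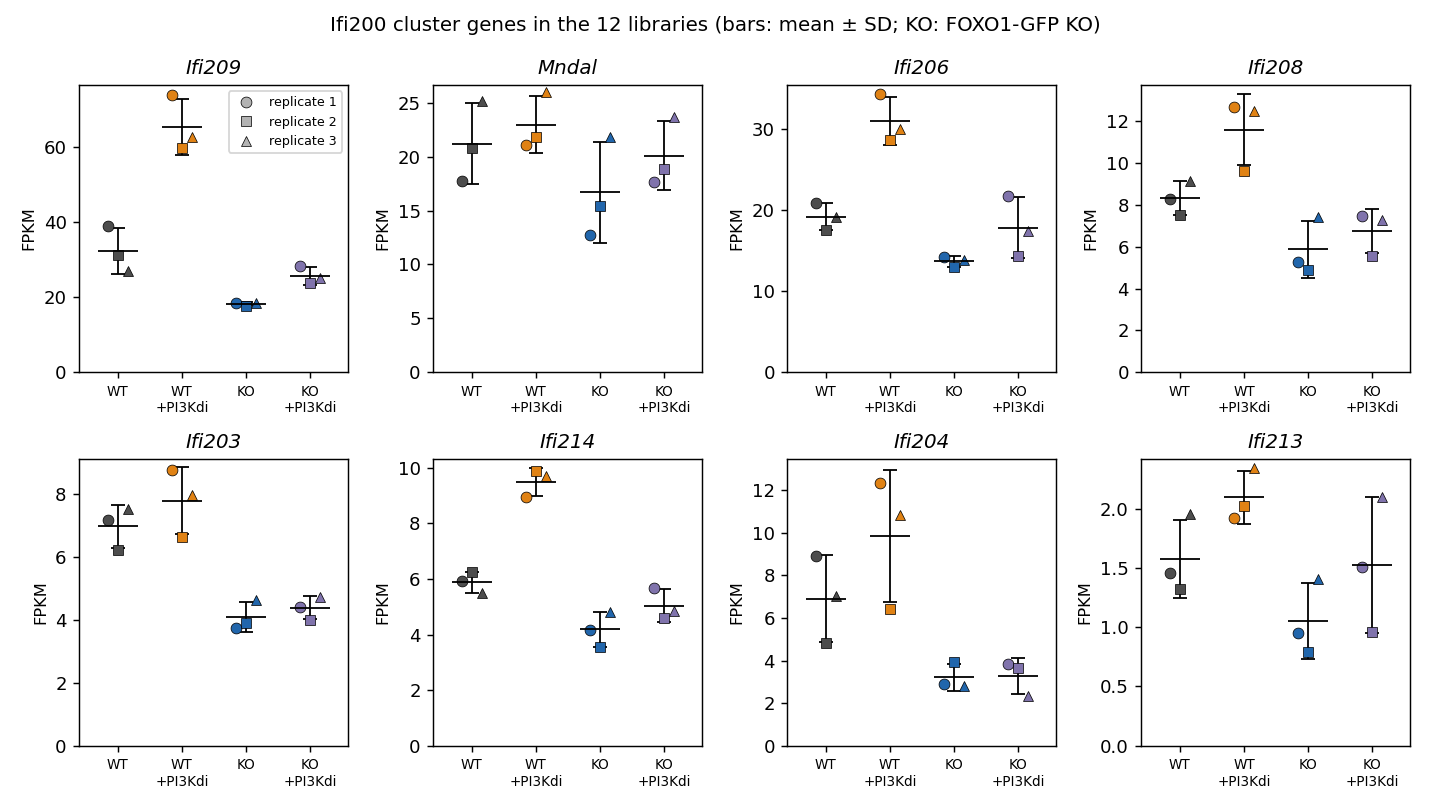
FPKM of each of the 8 members (vertical axes from 0) in the 3 libraries of each group, with the replicate number as the symbol and bars for the mean ± SD. WT+PI3Kdi has the highest mean of the 4 groups for all 8 members, and for Ifi209, Ifi206, Ifi214 and Ifi208 its 3 libraries lie above all others.

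The first question was how inhibition of p110δ moved the cluster in WT CTL. Ifi209 rose 2.03-fold, the only member called on the unpaired fit, and the fitted changes of the other 7 members were upward too, from 1.09-fold (Mndal) to 1.61-fold (Ifi206). Replicate numbers pair a vehicle and a PI3Kdi library within a genotype, and with that pairing as a block Ifi206 and Ifi214 were also called. All 8 members were higher with PI3Kdi in each of the 3 WT pairs, for Mndal by as little as 1.03-fold. The share of all genes with that pattern was not counted, so nothing is read from this count.

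A call needed a p under 0.05 after Benjamini-Hochberg adjustment across the 13283 genes, from limma on log2(FPKM + 0.1), and in addition a change of over 1.5-fold. On that rule 1 of 8 members was called higher in WT with PI3Kdi, against 0.0753% of all genes, and with the replicate block 3 of 8, against 1.53% of all genes. The same 3 of 8 were called by voom on estimated reads with the block, against 1.85%. These counts are a description, because the members were listed with the response to PI3Kdi known. The study, from these same libraries, had already listed Ifi206, Ifi209 and Ifi214 as induced by PI3Kdi in WT. It listed the same 3 genes as lower in FOXO1-GFP KO+PI3Kdi than in WT+PI3Kdi. The study described the genes that met both conditions as controlled by p110δ by way of FOXO1. The shares of all genes are given for scale and are no test of the cluster. The median log2 fold change was 0.48 over the members and -0.04 over all genes.

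Ifi209 was the most abundant of the 8 in WT. It stood at 38.85, 31.23 and 26.84 FPKM in WT replicates 1, 2 and 3 and at 73.74, 59.67 and 62.55 FPKM in WT+PI3Kdi. Every treated library was above every untreated one. The log2 fold change was 1.02 ± 0.13 (SE, n = 3 per group), with an adjusted p of 0.0150 in limma and of 1.06e-05 with the replicate block. Without WT replicate 2, WT replicate 3, WT+PI3Kdi replicate 1 or WT+PI3Kdi replicate 3 the unpaired call was lost, with an adjusted p of up to 0.112 and log2 fold changes between 0.90 and 1.17. With the block it was kept whichever pair was left out.

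Ifi206, a close copy of Ifi208 and Ifi213 at its start site, stood at 20.87, 17.51 and 19.10 FPKM in WT and at 34.33, 28.55 and 29.98 FPKM in WT+PI3Kdi. The groups did not overlap, and the ratio within a pair was 1.57 to 1.64. Its log2 fold change of 0.69 ± 0.14 (SE) had an adjusted p of 0.136 in limma and of 0.000351 with the replicate block.

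Ifi214, the nearest copy of Ifi209, stood at 5.93, 6.24 and 5.49 FPKM in WT and at 8.93, 9.88 and 9.69 FPKM in WT+PI3Kdi. Again all treated libraries were above all untreated ones. Its log2 fold change of 0.68 ± 0.13 (SE) had an adjusted p of 0.106 in limma and of 0.000442 with the replicate block.

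Ifi208 stood at 8.29, 7.53 and 9.14 FPKM in WT and at 12.67, 9.65 and 12.51 FPKM in WT+PI3Kdi, without overlap. Ifi204, which encodes the DNA-binding protein p204, stood at 8.91, 4.82 and 7.01 FPKM and at 12.34, 6.4 and 10.84 FPKM. Its groups overlapped, because replicate 2 was the lowest in both, while the ratio within a pair was 1.33 to 1.55. The log2 fold changes of Ifi208 and Ifi204 were 0.47 ± 0.18 and 0.50 ± 0.29 (SE), with adjusted p of 0.753 and 0.9997 in limma and of 0.0142 and 0.0478 with the replicate block, under the 1.5-fold limit in both fits.

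Ifi213, the least abundant member, stood at 1.46, 1.32 and 1.95 FPKM in WT and at 1.92, 2.02 and 2.34 FPKM in WT+PI3Kdi. Mndal, the mouse MNDA-like gene, stood at 17.75, 20.79 and 25.17 FPKM and at 21.10, 21.86 and 25.99 FPKM. Ifi203, which shares its start region with the annotated Mndal, stood at 7.18, 6.22 and 7.52 FPKM and at 8.77, 6.65 and 7.97 FPKM. The groups of these 3 genes overlapped. Their log2 fold changes of 0.40, 0.12 and 0.15 had adjusted p of 0.0774, 0.439 and 0.215 with the replicate block in limma. Without the block each had an adjusted p of 0.9997 in limma. The 95% interval for Mndal, from -0.07 to 0.32 with the block, lay under the 1.5-fold limit.

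The 4 members whose treated libraries all lay above the untreated ones were Ifi206, Ifi214, Ifi208 and Ifi209, where 4.43% of all genes showed such a separation. These 4 genes had at least 773 reads in each library of the 2 groups. The depth of the 2 groups did not overlap either, so depth and PI3Kdi cannot be told apart in WT. The part of depth in the result was not tested. In bulk libraries, fewer cells expressing a gene and less of its mRNA per cell cannot be told apart.

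**Figure D2:**
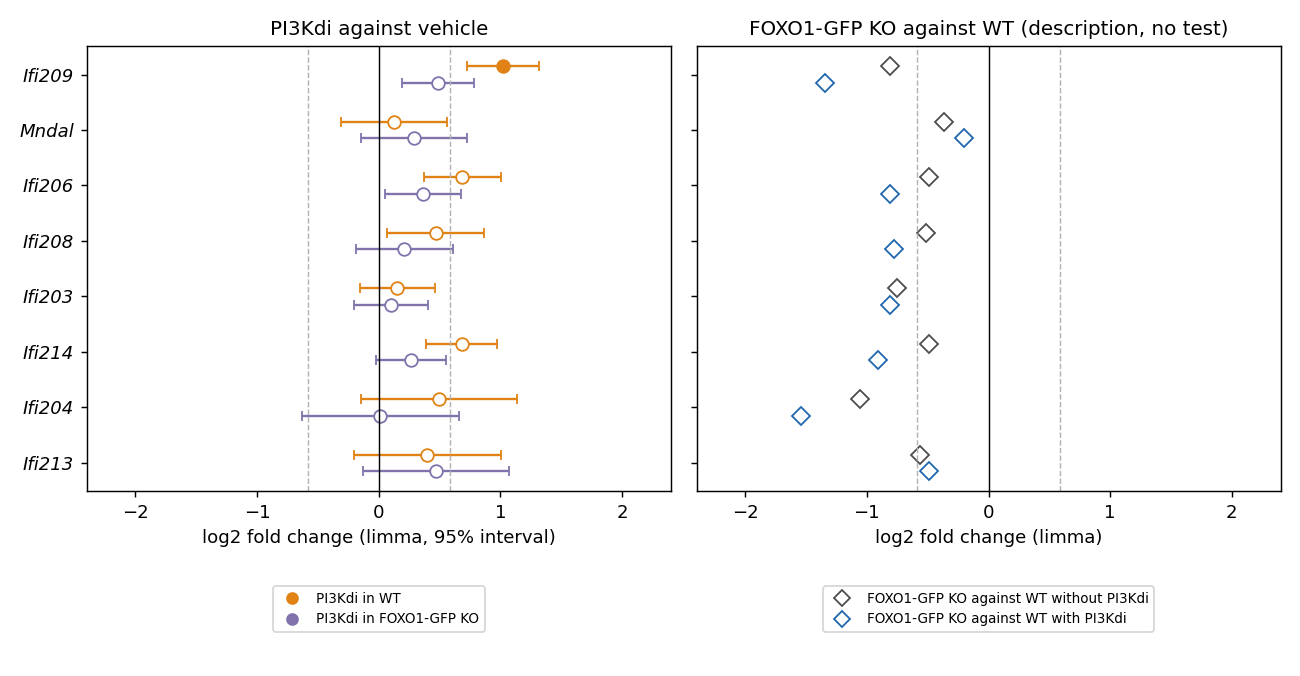
log2 fold change of each member from limma without a block, for PI3Kdi in each genotype with its 95% interval (left) and for FOXO1-GFP KO against WT with PI3Kdi and without, as a description (right). Dashed lines mark 1.5-fold, and on the left filled points are called, which Ifi209 alone is, in WT. On the right all points lie below 0.

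The second question was whether the same inhibitor moved the cluster in CTL that lack FOXO1. In FOXO1-GFP KO, 0 of 8 members were called in limma, against 0.0452% of all genes called higher. At an unadjusted p under 0.05 there were 2 members, Ifi209 and Ifi206, against 5.17% of all genes in either direction. The replicate block called 0 of 8 as well, against 1.82% of all genes, as did voom on estimated reads with the block, against 2.14%. The median log2 fold change was 0.28 over the members and -0.02 over all genes, and all 8 fitted changes were upward.

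Ifi209 stood at 18.48, 17.67 and 18.43 FPKM in FOXO1-GFP KO and at 28.20, 23.71 and 24.97 FPKM with PI3Kdi. The treated libraries were all above the untreated ones. The highest of them, at 28.20 FPKM, was above the lowest untreated WT library (26.84 FPKM) and below the other WT libraries. The log2 fold change was 0.49 ± 0.13 (SE), with an adjusted p of 0.571 in limma and of 0.00185 with the replicate block, at a fold of 1.40 that is under the limit.

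Ifi206 was the other member whose groups did not overlap in FOXO1-GFP KO (5.28% of all genes), at 14.21, 12.92 and 13.77 FPKM without and 21.74, 14.27 and 17.35 FPKM with PI3Kdi. Ifi213, which was not separated, stood at 0.95, 0.79 and 1.41 FPKM and at 1.51, 0.96 and 2.10 FPKM. With the replicate block these genes had log2 fold changes of 0.36 and 0.47 and adjusted p of 0.0162 and 0.0380 in limma, both under 1.5-fold. Without the block their adjusted p in limma were 0.866 and 0.933.

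For Ifi214 the values were 4.17, 3.57 and 4.82 FPKM without and 5.69, 4.58 and 4.86 FPKM with PI3Kdi. Mndal stood at 12.76, 15.45 and 21.89 FPKM and at 17.62, 18.92 and 23.71 FPKM. Ifi208 stood at 5.28, 4.89 and 7.44 FPKM and at 7.47, 5.54 and 7.26 FPKM. The groups overlapped for each of these 3 genes, and their adjusted p in limma with the replicate block were 0.0573, 0.0585 and 0.171. Without the block each had an adjusted p of 0.933 in limma.

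Ifi203 and Ifi204 had the smallest fitted changes in FOXO1-GFP KO. Ifi203 stood at 3.75, 3.90 and 4.63 FPKM without and 4.42, 4.0 and 4.73 FPKM with PI3Kdi, a log2 fold change of 0.10 ± 0.14 (SE). Ifi204 stood at 2.91, 3.92 and 2.79 FPKM and at 3.85, 3.67 and 2.32 FPKM, higher with PI3Kdi in 1 of 3 pairs, with a log2 fold change of 0.01 ± 0.29 (SE).

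**Figure D3:**
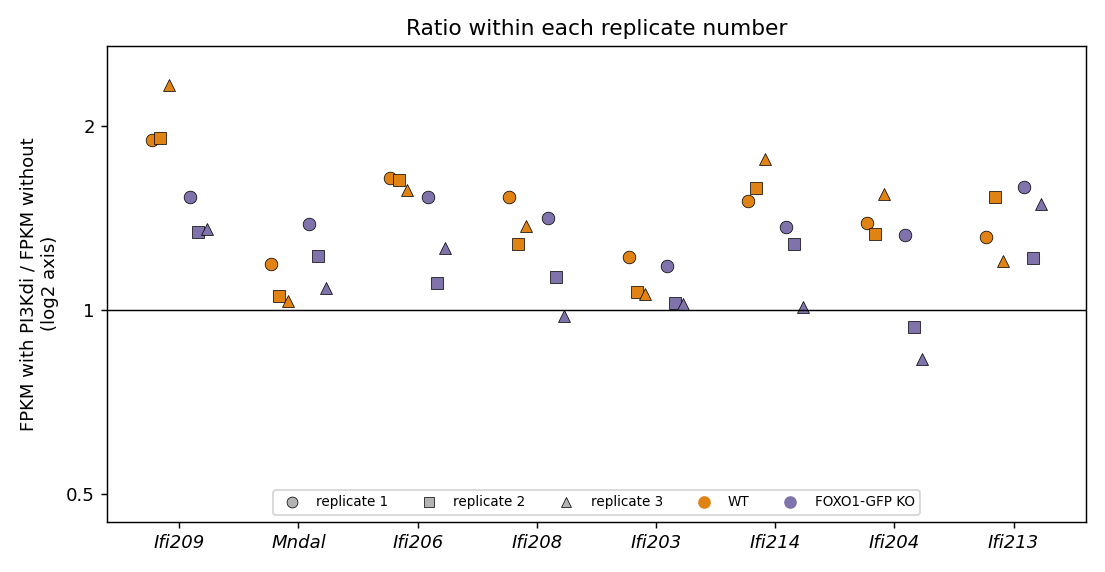
Ratio of FPKM with PI3Kdi to FPKM without, within each replicate number (log2 axis, 1 is no change), for WT and FOXO1-GFP KO. All ratios of WT lie above 1, and for Ifi209 and Ifi214 the WT points reach 2.33 and 1.77 while the highest FOXO1-GFP KO points are 1.53 and 1.36.

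Whether the response to PI3Kdi itself differed between the genotypes was tested as the difference of the log2 fold changes, FOXO1-GFP KO minus WT. By limma 0 of 8 members and 0.00% of all genes were called. At an unadjusted p under 0.05 there were 2 members (Ifi209 and Ifi214), against 1.51% of all genes, and, with the replicate block, 4 members (Ifi204 and Ifi206 in addition), against 10.8%. With the block 0 were called too, beside 0.0151% of all genes called lower. With voom on estimated reads and the block there were also 0, beside 0.0377%. Ifi209 had a difference of -0.54 (95% interval -0.95 to -0.12), with an adjusted p of 1 in limma and of 0.0851 with the replicate block. The differences of Ifi204, Ifi214, Ifi206, Ifi208 and Ifi203 were -0.48, -0.41, -0.33, -0.26 and -0.06, and those of Ifi213 and Mndal were 0.07 and 0.17. Leaving out 1 library turned the sign for Ifi203, Ifi213 and Mndal. A response smaller in FOXO1-GFP KO was therefore not established for any member at this adjusted threshold, and the intervals do not show that the responses were alike.

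The third comparison set FOXO1-GFP KO beside WT, as a description. The study had already listed Ifi206, Ifi209 and Ifi214 as lower in FOXO1-GFP KO with PI3Kdi in both genotypes. Without PI3Kdi all 8 members were lower in FOXO1-GFP KO. Ifi204 was 2.08-fold lower, Ifi209 1.75-fold, Ifi203 1.69-fold, Ifi213 1.48-fold, Ifi208 1.43-fold, Ifi214 and Ifi206 1.40-fold and Mndal 1.29-fold. With PI3Kdi in both genotypes the fold was larger for 6 members, at 2.91 for Ifi204, 2.54 for Ifi209, 1.87 for Ifi214, 1.76 for Ifi206, 1.75 for Ifi203 and 1.71 for Ifi208, and smaller for Ifi213 (1.41) and Mndal (1.15).

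Of all genes, 0.263% were called lower without PI3Kdi and 1.02% with it by limma, 0.196% and 0.798% with the replicate block, and 0.286% and 0.874% with voom on estimated reads and that block. The WT libraries also serve as the reference for PI3Kdi in WT, so the contrasts are not independent of each other.

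The 3 FOXO1-GFP KO libraries lay under the 3 WT libraries for 6 members, beside 6.79% of all genes, and the same 6 members were separated with PI3Kdi, beside 7.90% of all genes. Ifi213 and Mndal were the members that overlapped. For Ifi208, Ifi204 and Ifi203 all 6 FOXO1-GFP KO libraries, treated or not, were under all 6 WT libraries, beside 1.77% of all genes, and these were also the 3 members whose FOXO1-GFP KO+PI3Kdi libraries lay under the untreated WT libraries, beside 10.4%. Ifi204 shows the separation in its values, as the highest FOXO1-GFP KO library had 3.92 FPKM and the lowest WT library 4.82 FPKM. For Ifi203 the corresponding values were 4.73 and 6.22 FPKM, and for Ifi208 they were 7.47 and 7.53 FPKM.

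Markers of other cell types were read beside these values. Of the 15 B cell markers listed, 8 were in the table, and Ms4a1, Cd79a and Pax5 were not among them. The summed level of the 8 was 20.0 to 24.2 FPKM in WT, 21 to 27.2 in WT+PI3Kdi, 10.8 to 12 in FOXO1-GFP KO and 9 to 11.5 in FOXO1-GFP KO+PI3Kdi. The sum was thus lower in FOXO1-GFP KO, with Ighm the largest part of that, at means of 8.67, 12.3, 2.83 and 2.35 FPKM in the same order. Of the 8, 1 had an upward fitted change in FOXO1-GFP KO without PI3Kdi (H2-Aa, 0.26) and 3 had one with it (Cd74, 0.47, H2-Aa, 0.55, and H2-Eb1, 0.22), none of them called. In limma Ighm, the immunoglobulin mu heavy chain, was called lower in FOXO1-GFP KO without PI3Kdi (log2 fold change -1.60), and Ighm, Igkc and Jchain were called lower with it (-2.38 for Ighm). Igkc, the kappa light chain, had at most 43 reads in a library and was listed at 0 in all 3 libraries of FOXO1-GFP KO+PI3Kdi. With the replicate block Igkc was called higher with PI3Kdi in WT (log2 fold change 1.35, adjusted p = 0.0294 in limma, treated libraries 1.38 to 2.84 FPKM and untreated 0.3 to 1.68). In the comparison of genotypes with PI3Kdi, Jchain was no longer called with the block (adjusted p = 0.0794 in limma). By the study's methods the CTL of both genotypes were sorted as CD8+, and those of FOXO1-GFP KO also as GFP-. The source of these markers, and their part in the values of the members, was not tested.

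Of 16 myeloid markers 7 were in the table, led by Fcer1g and Cd68, and Lyz2, Csf1r and Adgre1 were not among them. Their summed level was 36.2 to 63.4 FPKM in WT, 34.1 to 66.7 in WT+PI3Kdi, 52.5 to 56.4 in FOXO1-GFP KO and 54.2 to 66.1 in FOXO1-GFP KO+PI3Kdi, ranges that overlap, and 0 of 7 were called in any contrast. Of the 4 CD4 T cell markers 3 were in the table, at 4.96 to 8.24 FPKM in sum. Cd4 itself, at a mean of 0.5 FPKM in WT and 0.9 in WT+PI3Kdi, was called higher with PI3Kdi in WT with the replicate block alone. No CD4 marker was called by limma without the block.

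The members were compared with their own locus. Of the other 12 family genes listed, 2 were in the table, Aim2 and Ifi207. Aim2, which encodes the inflammasome DNA sensor and is annotated 2.4 kb from Ifi206, stood at 19.7 ± 0.602 FPKM in WT and 18.9 ± 0.247 FPKM with PI3Kdi, and at 18.7 ± 1.14 FPKM in FOXO1-GFP KO and 18.6 ± 2.09 FPKM with PI3Kdi (SD, n = 3). Its fitted log2 fold changes lay between -0.07 and 0.04 in the 5 contrasts. Ifi207, which lies inside the cluster and carries the same ISRE letters as 6 members, was hardly expressed, at 0.03 to 0.28 FPKM and 2 to 24 reads.

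Within 2 Mb of the cluster the table held 34 genes that were not members. Their median log2 fold change was -0.05 for PI3Kdi in WT, -0.04 for PI3Kdi in FOXO1-GFP KO, -0.06 for FOXO1-GFP KO against WT without PI3Kdi and -0.11 with it, where the members had 0.48, 0.28, -0.54 and -0.81. In a genotype contrast 2 of the 34 were called. Slamf6, a receptor of the SLAM family, was lower in FOXO1-GFP KO with a log2 fold change of -1.47 without and -2.90 with PI3Kdi, and it rose with PI3Kdi in WT by 1.71. It stood at 0.21 to 0.33 FPKM in WT, 0.88 to 1.13 in WT+PI3Kdi, 0.01 to 0.04 in FOXO1-GFP KO and 0.04 to 0.07 in FOXO1-GFP KO+PI3Kdi. Fcrl6, an Fc receptor-like gene, was higher in FOXO1-GFP KO by 1.11 and 1.96, although without PI3Kdi its call was lost with the replicate block (adjusted p = 0.197 in limma). Both are low, with mean levels of 0.345 and 0.713 FPKM.

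**Figure D4:**
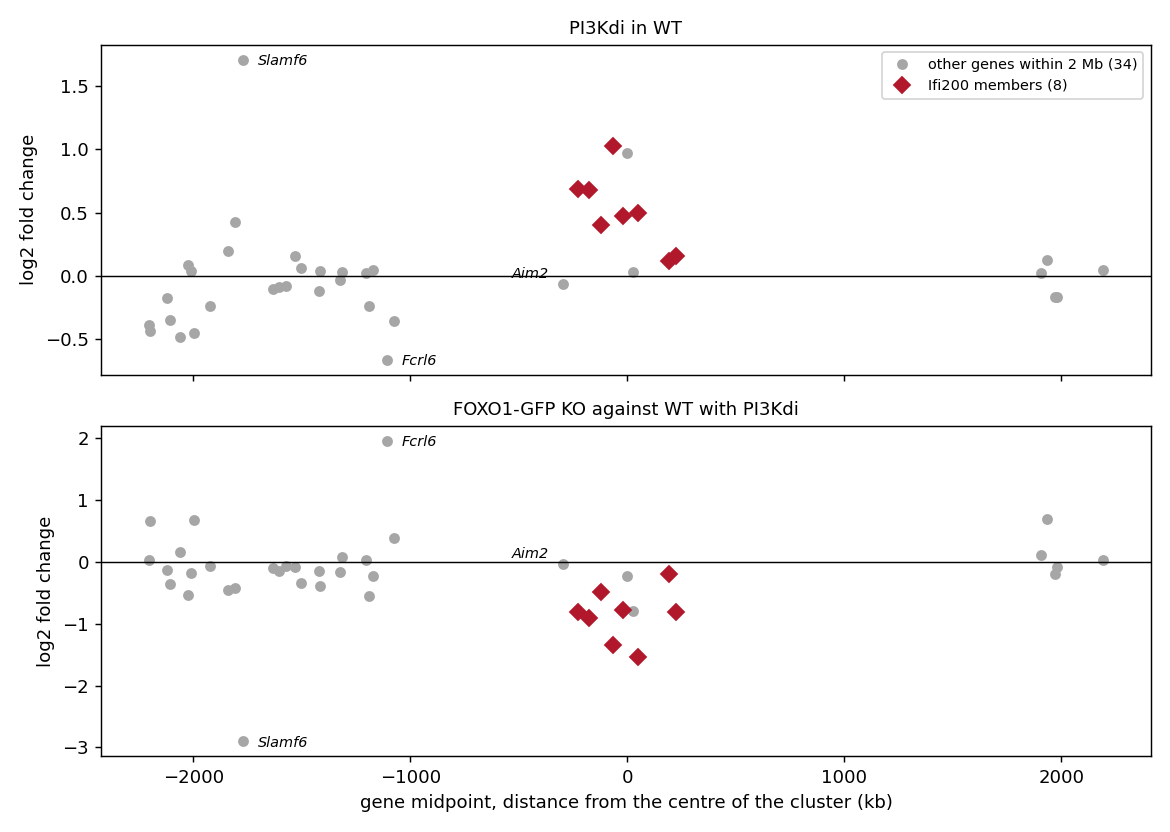
log2 fold change of the 8 members (diamonds) and of 34 other genes within 2 Mb (circles), by the distance in kb of the gene's midpoint from the centre of the cluster, for PI3Kdi in WT (top) and FOXO1-GFP KO against WT with PI3Kdi (bottom). The members lie above 0 at the top and below 0 at the bottom, Aim2 lies at -0.06 and -0.03, and of the neighbours outside the cluster Slamf6 and Fcrl6 lie farthest from 0.

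The members were also set beside other genes of interferon biology. Of 40 interferon-stimulated genes 38 were in the table, and 0 were called in any of the 5 contrasts by limma without the block. Their median log2 fold change was 0.02 for PI3Kdi in WT and 0.14 for it in FOXO1-GFP KO, and -0.14 and -0.09 for FOXO1-GFP KO against WT without and with PI3Kdi. Bst2, or tetherin, and Ifi27 were the most abundant, and their log2 fold changes with PI3Kdi in WT were -0.02 and 0.05. With the replicate block 1 gene was called higher and 1 lower with PI3Kdi in WT, which were Ifit1bl1 (0.73) and the antiviral GTPase gene Mx1 (-0.60), and Rtp4 was called higher in FOXO1-GFP KO (0.62).

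The 16 GTPase genes induced by interferon-γ (guanylate-binding proteins and immunity-related GTPases) had medians of 0.15 for PI3Kdi in WT and 0.30 for it in FOXO1-GFP KO, and of -0.15 and -0.03 for the genotype without and with PI3Kdi. None of the 16 was called by limma without the block. With it, Gbp2 was called higher with PI3Kdi in both genotypes, by log2 fold changes of 0.84 and 0.65, and Gbp5 in WT (0.63). The most abundant, Igtp, had 0.30 and 0.46.

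All 16 genes of interferon signalling were in the table (receptors, Janus kinases, STAT and IRF factors, Socs1 and Usp18). Usp18, which restrains type I interferon signalling, was called higher in FOXO1-GFP KO than in WT with PI3Kdi, by a log2 fold change of 1.10, the direction opposite to that of the members. Ifngr2, a chain of the interferon-γ receptor, was called higher with PI3Kdi in both genotypes with the replicate block (0.70 and 1.22). Of the DNA-sensing genes listed, 19 were in the table, including Cgas, Sting1 and Zbp1, and 0 were called in any contrast with the block or without. Sting1 and Zbp1, the most abundant at 46.1 and 45.8 FPKM, had log2 fold changes of -0.06 and 0.04 with PI3Kdi in WT. Samhd1, at 33.3 FPKM, had 0.582, just under the limit (adjusted p = 0.000340 in limma with the replicate block). For FOXO1-GFP KO against WT with PI3Kdi it had -0.57. Il18, at 1.07 FPKM, had 0.39 and -1.08 in these 2 contrasts, with adjusted p of 0.339 and 0.534 in limma with the block. Casp1, at 8.7 FPKM, went the other way, with -0.31 and 0.52. Of the 19 genes, 7 had an upward fitted change in the first of these contrasts and 12 in the second. The medians of the 19 genes were -0.03 and 0.05.

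**Figure D5:**
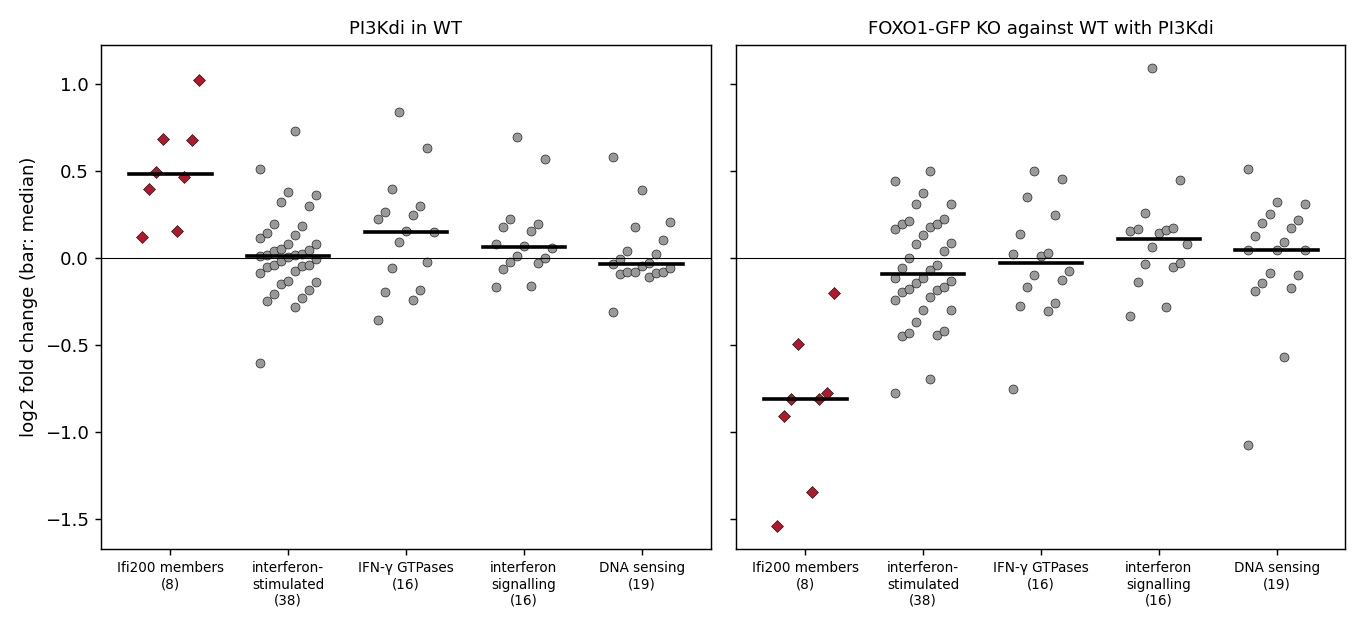
log2 fold change of the 8 members and of the genes of 4 other lists, with bars at the medians, for PI3Kdi in WT (left) and FOXO1-GFP KO against WT with PI3Kdi (right). The median of the members is 0.48 at the left and -0.81 at the right, and those of the interferon-stimulated genes are 0.02 and -0.09.

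Across the 12 libraries the members varied together. Pearson's r of log2(FPKM + 0.1) was 0.36 to 0.97 over the 28 pairs of members, with a median of 0.81, highest for Ifi206 with Ifi209 (0.97) and lowest for Ifi204 with Mndal (0.36). The points share their libraries and the groups, and once group means were removed r ranged from -0.49 (Mndal with Ifi209) to 0.89 (Ifi208 with Ifi203), with a median of 0.37. The composition of the cluster also moved, as Ifi209 made up 31.5 ± 4.76% of the summed FPKM in WT and 40.8 ± 1.94% with PI3Kdi, and 27.4 ± 2.58% in FOXO1-GFP KO and 30.4 ± 1.53% with PI3Kdi (SD, n = 3). For Mndal the shares were 20.9 ± 4.25%, 14.4 ± 2.04%, 24.7 ± 4.36% and 23.9 ± 3.97% in the same order.

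The genes most like the members were ranked by Pearson's r with the mean of the members' standardised log2(FPKM + 0.1) over the 12 libraries, among 10363 other genes that averaged at least 1 FPKM. They were Serpina3g, a serine protease inhibitor (0.983), Smad7, an inhibitor of TGF-β signalling (0.974), Septin6, a cytoskeletal GTPase (0.971), Dgka, a kinase of diacylglycerol (0.960), and Epsti1, an interferon-induced gene (0.960). The number of genes with r over 0.9 was 34. Serpina3g had mean levels of 53.2, 83.4, 22.3 and 32.6 FPKM in WT, WT+PI3Kdi, FOXO1-GFP KO and FOXO1-GFP KO+PI3Kdi, and Dgka had 29.7, 54.9, 15.6 and 21.5 FPKM in the same order. None of the 5 lies near the cluster: they are annotated on other chromosomes.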

How the data were processed

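The libraries were TruSeq Stranded mRNA from 300 ng of total RNA. The authors aligned reads with STAR 2.7.1a to GRCm38.p6, counted reads per gene with its GeneCounts option, filtered genes and scaled them with edgeR, and deposited FPKM rounded to 2 decimals for 13283 genes in 12 libraries, 0 of whose columns were left unassigned. That option counts a uniquely mapped read only where it overlaps a single gene, so reads that fit several members are left out of all of them. The members, the gene lists and the named genes were chosen with earlier results of these data known, so no test here is independent of them.

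Group means were fitted with limma 3.58.1 (R 4.3.3) to log2(FPKM + 0.1) of all 12 libraries, with empirical Bayes and a mean-variance trend and without a block. Fold changes are on that scale and understate the change of low genes. Calls needed a Benjamini-Hochberg adjusted p under 0.05 and a change over 1.5-fold. Deviations from group means of the 6 same-numbered pairs within a genotype correlated at 0.594 to 0.838, so a random block of genotype and replicate number was fitted as well. The numbers are the biological replicate numbers of the labels, and no source used here says that a pair shares a mouse. P-values measure the spread between these replicates. Data were simulated for PI3Kdi in WT, with a log2 change of 1 given to 200 of the 13283 genes. Of these, 59% were recovered without and 91% with the block, and 0 unchanged genes were called. The simulated spread was given a part shared within pairs, close to the fitted block correlation of 0.757. The gain with the block was thus built in, and it is not evidence for the pairing.

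Gene models came from GENCODE M21, which matched 13270 genes. Depth was estimated from genes up to 400 bp long, and 98.6 to 100% of the held-out values then came out as whole reads, against 17.5 to 33.8% by chance. Reads of a member are estimates from it. The named genes were the members, the cluster genes in the table, list genes called or among the 2 most abundant of their list, neighbours called in a genotype contrast, and the 5 genes most like the members. Samhd1 and Il18 were named in addition, for fold changes in the direction of the members, and Casp1 for changes in the other direction.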

Additional observations from a re-analysis of the deposited data

How the results depend on the processing

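With PI3Kdi in WT, 1 of 8 members was called in the unpaired fit, 3 with the replicate block within genotype and 3 with that block in a voom fit of the estimated reads. Leaving out 1 library gave 0 to 1, and the block leaving out 1 pair, chosen after seeing the data, gave 3 each time. With PI3Kdi in FOXO1-GFP KO, and for the difference of the responses, 0 were called in these fits. These counts and the genotype counts that follow are a description, since the members were listed with results known, and nothing is read from them. Of all genes, 0.263% were called lower in FOXO1-GFP KO without PI3Kdi and 1.02% with it in the unpaired fit. With the block these shares were 0.196% and 0.798%. The shares in the fits that left out a library or a pair are not given here. For FOXO1-GFP KO against WT without PI3Kdi, 1 was called in the unpaired fit and 2 with voom, with voom and the block, or when genes averaging under 1 FPKM in every group were left out. Leaving out 1 library gave 0 to 1 (0 without WT replicate 1 or 2, WT+PI3Kdi replicate 3, any 1 FOXO1-GFP KO library, or FOXO1-GFP KO+PI3Kdi replicate 2 or 3), as did the block leaving out 1 pair. With PI3Kdi, 5 were called with or without the block, 2 to 6 when 1 library was left out (2 without WT+PI3Kdi replicate 1 or 3 or FOXO1-GFP KO+PI3Kdi replicate 2, and 3 without FOXO1-GFP KO+PI3Kdi replicate 3) and 1 to 3 with the block leaving out 1 pair. The cause of these changes was not tested, beyond the smaller number of libraries. Of 280 fold changes under other pseudocounts, filters, the block and voom, 272 kept their direction and side of the threshold, 8 came to pass it and 0 turned sign. Of 480 with 1 library left out, 12 turned sign, none of them called. These were the difference of the responses of Ifi203 (-0.16 to 0.035), Ifi213 (-0.18 to 0.35) and Mndal (-0.0075 to 0.38), and the change of Ifi204 with PI3Kdi in FOXO1-GFP KO (-0.11 to 0.24). With the block leaving out 1 pair, 4 of 240 turned sign, again uncalled: the difference of Ifi203 (0.0102) and of Ifi213 (-0.00489 and -0.00318), and the change of Ifi204 in FOXO1-GFP KO (-0.17). Across all genes the block raised the number called from 13 to 342 with PI3Kdi in WT and from 6 to 370 with PI3Kdi in FOXO1-GFP KO. It changed no other call of a member.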

Other observations

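Within the groups the members did not all follow the same libraries. Replicate 3 had the highest Mndal and the highest Ifi213 of its group in each of the 4 groups, a pattern met by 16.5% of all genes (2193), whereas replicate 1 had the highest Ifi209 and the highest Ifi206 in each of the 4 groups. Ifi206 was lowest in replicate 2 of each group. The shares of all genes with these replicate 1 and replicate 2 patterns were not counted. The labels do not tie the numbers of the 2 genotypes to each other. Between genotypes, deviations from group means correlated at -0.499 to 0.730 for libraries of the same number. For libraries of different numbers they correlated at -0.705 to 0.669.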
